A study of Homo sapiens with 6 samples.

Results

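The chemokines examined here are 10 ligands that epithelial cells are known to secrete, namely CXCL1, CXCL2, CXCL3, CXCL5, CXCL10, CXCL11, CXCL16, CX3CL1, CCL5 and CCL20. They were picked by name as a family, with earlier results of these data known, and found by Ensembl ID among the 62492 genes of the deposited tables, where all 10 had a row. The tables hold RNA-seq of HCT116, an established human colorectal carcinoma cell line, after transfection with siRNA at a final concentration of 20 nM with Lipofectamine RNAiMAX. Of the 6 libraries, 3 were from cells given a control siRNA (siControl, labelled WT) and 3 from cells given an siRNA against NONO (siNONO, labelled as NONO knockdown), with 1 library of each kind in Sets 1, 2 and 3. NONO is a nuclear RNA- and DNA-binding protein of the DBHS family and a component of paraspeckles. The knockdown was made with 1 siRNA duplex in 1 cell line, so the loss of NONO and any other effect of that duplex cannot be told apart in these libraries, and RNA from poly(A)-selected bulk cultures cannot tell fewer expressing cells apart from less RNA per cell.

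Chemokines are small secreted proteins that draw leukocytes along a gradient by way of G protein-coupled receptors. The ELR-motif ligands CXCL1, CXCL2, CXCL3 and CXCL5 bind CXCR2 and draw neutrophils, whereas the interferon-inducible CXCL10 and CXCL11 bind CXCR3 on activated T cells. CCL5 draws T cells and monocytes through receptors that include CCR1 and CCR3, CCL20 draws cells that carry CCR6, and CXCL16 and CX3CL1 are made as membrane-bound proteins that bind CXCR6 and CX3CR1 and are released by ADAM10 and ADAM17. In the intestinal epithelium the ELR ligands and CCL20 are textbook targets of NF-kB, and CXCL10 and CXCL11 are textbook interferon-induced genes, with further control through AU-rich elements that shorten the life of several of these mRNAs.

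Positions and promoters are described before any expression value, and the motif matches below do not divide the ligands into the groups just named. On GRCh37, CXCL1 lies on chromosome 4 from 74735110 to 74737025 on the plus strand, and on the minus strand of the same chromosome lie CXCL5 from 74861359 to 74864394, CXCL3 from 74902306 to 74904524 and CXCL2 from 74962757 to 74964913. CXCL10, from 76942271 to 76944650, and CXCL11, from 76954835 to 76962568, are neighbours farther along chromosome 4, also on the minus strand. CCL20 lies on chromosome 2 from 228670455 to 228682280 on the plus strand, CX3CL1 on chromosome 16 from 57406389 to 57418956 on the plus strand, and CXCL16 (4636828 to 4643223) and CCL5 (34198495 to 34207797) on chromosome 17 on the minus strand. RefSeq promoters (table of GRCh38.p14) were at hand for 7 of the 10 genes, and not for CXCL16, CX3CL1 and CCL5. Each of the 7 matched GRCh37 exactly and at 1 place, searched on the chromosome and strand of the gene only. Below are the 70 bases from 110 to 41 bases before the RefSeq start of the 3 close paralogs CXCL1 (chr4:74735000-74735069, plus strand), CXCL2 (chr4:74964953-74965022, minus strand) and CXCL3 (chr4:74904447-74904516, minus strand), shown because they are nearly alike, and of CXCL5 (chr4:74864435-74864504, minus strand) and CCL20 (chr2:228678448-228678517, plus strand). Capitals mark the NF-kB consensus motif and, in CXCL5, the interferon gamma-activated sequence (GAS, TTCNNNGAA) that overlaps it.
CXCL1: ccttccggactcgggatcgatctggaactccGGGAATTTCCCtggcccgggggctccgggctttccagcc
CXCL2: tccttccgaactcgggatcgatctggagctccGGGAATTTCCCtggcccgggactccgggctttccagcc
CXCL3: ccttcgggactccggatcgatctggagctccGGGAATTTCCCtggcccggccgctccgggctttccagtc
CXCL5: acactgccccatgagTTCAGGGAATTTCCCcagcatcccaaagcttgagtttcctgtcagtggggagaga
CCL20: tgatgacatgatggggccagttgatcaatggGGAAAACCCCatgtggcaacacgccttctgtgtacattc

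The CXCR3 ligands differed from each other. CXCL11 (chr4:76957264-76957333, minus strand, bases 110 to 41 before the start) held the NF-kB consensus, and CXCL10 (chr4:76944751-76944880, minus strand, bases 230 to 101) held the core of the interferon-stimulated response element (ISRE, written here as GAAA, 2 bases of any kind and GAAA) followed by 2 separate NF-kB matches, all in capitals.
CXCL11: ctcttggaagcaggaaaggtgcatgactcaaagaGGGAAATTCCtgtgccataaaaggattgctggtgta
CXCL10: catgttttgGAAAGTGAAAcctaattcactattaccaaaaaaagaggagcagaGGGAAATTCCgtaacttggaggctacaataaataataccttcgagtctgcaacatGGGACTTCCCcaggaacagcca

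All 7 promoters held the NF-kB consensus within 250 bases before the start, against 5.21% of 35116 promoters searched in the same way on both strands. In CXCL1, CXCL2, CXCL3 and CXCL5 the capitals hold 2 matches that overlap and are offset by 1 base. The match began 79, 78, 79 and 79 bases before the start in CXCL1, CXCL2, CXCL3 and CCL20, at 91 in CXCL5, at 76 in CXCL11, and at 177 and 122 in CXCL10. The ISRE core was found in 1 of the 7, CXCL10, at 221 bases before the start, and is held by 3.02% of promoters, while 0.12% hold it together with the NF-kB consensus. The GAS was found in 2 of the 7, in CXCL5 at 95 bases and in CXCL11 at 240 bases before the start (outside the stretch printed), against 6.57% of promoters. By the annotation, the CXCL3 stretch falls in an exon of a CXCL3 transcript that begins before the RefSeq start. The CXCL5 stretch falls in an exon of a gene on the opposite strand. The CCL20 and CXCL11 stretches fall in introns of longer transcripts of the same genes. The CXCL10 and CXCL11 stretches lie inside an intron of ART3 on the opposite strand. A match is a description of letters and not of a bound site.

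**Figure D1:**
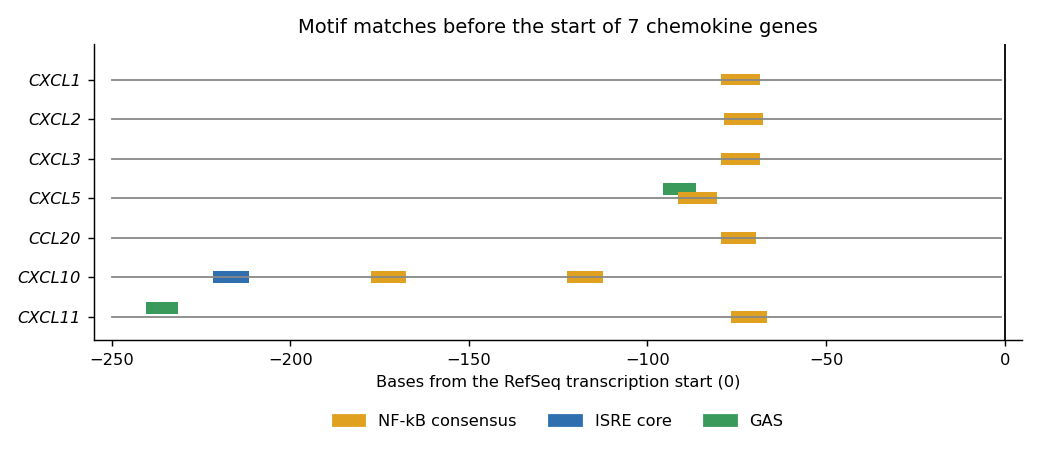
Position of motif matches in the 7 promoters, in bases from the RefSeq start at 0 (x axis, negative before it), 1 row a gene, with a colour for each motif. The NF-kB consensus recurs between 76 and 91 bases before the start in every gene but CXCL10, which has its 2 matches at 177 and 122 bases and the ISRE core at 221.

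The libraries held 21765393 to 32659002 estimated counts. NONO fell from 502 ± 11.8 to 95.1 ± 5.43 CPM (counts scaled to a common library size, SD, n = 3), a log2 fold change of -2.40 ± 0.0337 (SE, edgeR adjusted p = 2.47e-13). Of 10 colorectal epithelial markers, 7 were at 1 TPM (RSEM's measure of level, scaled for gene length and depth) or above in every library, with a summed level of 2880 to 3020 TPM in siControl and 2720 to 3010 TPM in siNONO. The other 3, VIL1, CDH17 and LGALS4, stayed at or below 0.35 TPM, so these markers of differentiated intestinal cells were nearly absent. Of 12 immune markers, CD3D and FCGR3A were at 0 in every library and PTPRC, the pan-leukocyte antigen, had at most 1 count. The summed immune markers were 3.53 to 6.95 TPM in siControl and 7.06 to 8.27 TPM in siNONO, most of it CD68, a lysosomal protein that macrophages hold in quantity (log2 fold change 1.40 ± 0.165, edgeR adjusted p = 1.80e-05). That fold change of CD68 is on counts. In TPM, CD68 stood at 2.07, 3.40 and 5.52 in siControl Sets 1 to 3, against 6.16, 6.29 and 6.31 in siNONO. Without CD68 the other 11 immune markers summed to 1.43 to 1.58 TPM in siControl and 0.77 to 1.96 TPM in siNONO. Fibroblast markers summed to 16.7 to 19.3 TPM in siControl and 16.5 to 18.5 TPM in siNONO, nearly all of it COL1A1, with COL1A2 at 0, and endothelial markers (3 of 4 with a row) stayed at or below 0.51 TPM.

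CXCL16 was the most abundant of these chemokines in HCT116, and CXCL1, CXCL3 and CXCL2 came next. The mean over all 6 libraries was 42.1 TPM for CXCL16, 2.07 TPM for CXCL1, 1.42 TPM for CXCL3, 0.827 TPM for CXCL2 and 0.707 TPM for CCL5. Lower still were CXCL10 (0.252 TPM), CCL20 (0.130 TPM), CXCL11 (0.0867 TPM) and CX3CL1 (0.0167 TPM), and CXCL5 was at 0. Among the 32083 genes with a mean above 0, CXCL16 stood at percentile 89.1, CXCL1 at 58.9, CXCL3 at 56.0 and CXCL10 at 39.4. CXCL16 alone made up 85.7% to 91.8% of the summed TPM of the 10 genes in each library.

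The order of the levels was not the same in both groups. In siControl, CXCL1 (1.65 to 2.29 TPM), CXCL3 (0.99 to 2.06 TPM) and CXCL2 (0.72 to 1.45 TPM) overlapped from one neighbour to the next, and CCL5 lay below all of them at 0.17 to 0.19 TPM. In siNONO, CXCL1 (2.01 to 2.41 TPM) lay above CXCL3 (1.24 to 1.47 TPM), CCL5 reached 1.07 to 1.48 TPM and overlapped CXCL3, and CXCL2 (0.49 to 0.83 TPM) lay below CCL5 and overlapped CXCL10 (0.19 to 0.88 TPM). CXCL10 and CXCL11 overlapped in turn, and CCL20 and CX3CL1 were last among those with a count. Only CXCL16 was clear of every other member in both groups, and these levels are descriptions with no test between genes.

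**Figure D2:**
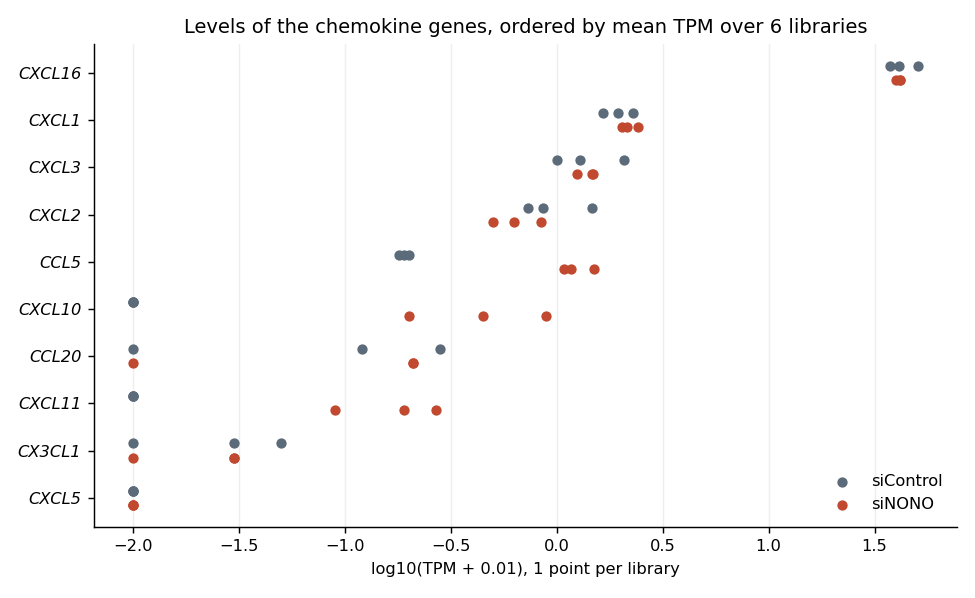
Level of each chemokine in each library (x axis, log10 of TPM plus a small constant, so that values of 0 stand at the left edge), 1 row a gene and 1 point a library, siControl in grey and siNONO in red, ordered by mean TPM. CXCL16 lies from 37.50 to 50.81 TPM, far to the right of the rest, and CCL5 lies below CXCL1, CXCL2 and CXCL3 in siControl and overlaps CXCL3 in siNONO.

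Of the 10 chemokines, 5 had enough counts to enter the test between siNONO and siControl (CXCL1, CXCL2, CXCL3, CXCL16 and CCL5), of which 1, CCL5, was called higher and 0 lower, a call being an adjusted p no greater than 0.05. Among all 17000 genes tested, 23.2% were called higher and 23.4% lower, so 1 of 5 is near that background. The other 5 (CXCL5, CXCL10, CXCL11, CX3CL1 and CCL20) did not reach the minimum count in enough libraries and are given as counts. All 60 of the 60 values of these genes were whole numbers as deposited. Canonical transcripts of CXCL1, CXCL2 and CXCL3 shared 5.3%, 10.1% and 5.3% of their 50-base stretches with another member and none of their 100-base stretches, and the remaining 7 shared none of either length.

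CXCL1, the ligand first described as a melanoma growth-stimulating activity, had 37, 44 and 23 counts in siControl Sets 1 to 3, against 44, 50 and 41 in siNONO. The siNONO library was the higher in each Set, but siNONO Sets 1 and 3 lay at or below siControl Set 2, so the groups overlapped. On the CPM scale the means were 1.26 ± 0.303 and 1.60 ± 0.174 (SD, n = 3), and the log2 fold change was 0.36 ± 0.230 (SE, 95% interval -0.15 to 0.86, edgeR adjusted p = 0.234). The interval runs from 0.904-fold to 1.81-fold.

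CXCL2, a close paralog of CXCL1 that also draws neutrophils, had 27, 13 and 12 counts in siControl against 12, 7 and 16 in siNONO. It was lower in siNONO in Sets 1 and 2 and level in Set 3, with log2 ratios of -0.97, -0.92 and 0.07. The groups overlapped, and the log2 fold change of -0.59 ± 0.381 (SE, 95% interval -1.42 to 0.24, edgeR adjusted p = 0.231) spans 0.374-fold to 1.18-fold. CXCL3, the remaining ligand of this cluster with counts, had 50, 20 and 21 counts in siControl against 29, 29 and 28 in siNONO. Here siControl Set 1 was the highest library and siControl Sets 2 and 3 were the lowest, with the siNONO libraries between them. The log2 fold change was -0.04 ± 0.297 (SE, 95% interval -0.69 to 0.60, edgeR adjusted p = 0.923), and it became 0.29 when either library of Set 1 was left out.

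CXCL5 had 0 counts in all 6 libraries, which allows up to 0.018 CPM over the series (3 counts, counting error only). Its promoter holds the same NF-kB letters as those of CXCL1, CXCL2 and CXCL3 in the lines above. CXCL8, a potent neutrophil attractant and no member of the group of 10, was read beside them. It had 146, 116 and 102 counts in siControl against 130, 121 and 134 in siNONO, with log2 ratios of 0.04 in every Set and a log2 fold change of 0.04 ± 0.128 (SE, 95% interval -0.24 to 0.32, edgeR adjusted p = 0.828). The ELR ligands gave 3 intervals that reach past a 1.5-fold difference in at least 1 direction and, for CXCL8, 1 that does not.

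CCL5, also called RANTES, had 4, 4 and 3 counts in siControl against 23, 25 and 33 in siNONO. Each siNONO library exceeded every siControl library, and the within-Set ratios were 6.62, 6.15 and 8.63. In CPM, the level rose from 0.135 ± 0.0125 to 0.961 ± 0.196 (SD, n = 3), a log2 fold change of 2.77 ± 0.408 (SE, 95% interval 1.88 to 3.66, edgeR adjusted p = 0.000119), or 6.82-fold with an interval from 3.68 to 12.6. Of all genes tested, 23.9% had every siNONO library above every siControl library and 24% had every one below, and 0.394% were called higher with a log2 fold change of at least 2. CCL5 passed the filter on low counts only through the siNONO libraries, so it had to differ to be tested at all. The 11 siControl counts set the precision. An exact permutation test of the CPM of CCL5, which ignored the pairing by Set, gave p = 0.1 (two-sided). That is the smallest that 3 against 3 libraries can give in this unpaired form. On log2(TPM + 1) with limma the difference was 0.92, since a pseudocount of 1 TPM exceeds the siControl level. With at least 10 counts required in every library CCL5 was not tested.

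CXCL10, known as IP-10, had 0 counts in the 3 siControl libraries and 9, 4 and 18 in siNONO, or 0, 0 and 0 CPM against 0.315, 0.144 and 0.644 CPM. Every siNONO library held reads of it and no siControl library did. Against a floor of 3 counts over the siControl group (0.0365 CPM), the summed siNONO level was at least 10.1-fold higher, and at least 6.32-fold higher without siNONO Set 3, which held 18 of the 31 counts. These bounds take the siNONO counts as they are, and the exact 95% counting interval of the ratio begins at 7.72. CXCL11, known as I-TAC, had 0 counts in each siControl library and 7, 5 and 2 in siNONO, and was at least 4.55-fold higher, or at least 3.44-fold higher without siNONO Set 1, with an exact 95% counting interval that begins at 3.23. Both genes together had 0 counts in siControl and 45 in siNONO, at least 14.6-fold higher against the same floor. Since 1 floor of 3 counts served for the summed counts, this bound exceeds that of either gene by construction. No counting interval was worked out for the sum. Of 32118 genes with any count, 0.346% shared the pattern of 0 counts in all siControl and at least 1 count in all siNONO libraries.

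Neither CXCR3 ligand passed the filter on low counts, so neither has an adjusted p in the comparison of 17000 genes. With no filter (31999 genes, of which 13.6% were called higher), edgeR gave CXCL10 an adjusted p of 3.93e-05 and CXCL11 one of 0.0342, which takes the chemokines called higher from 1 to 3. The edgeR log2 fold changes there, 6.29 and 5.32, depend on the prior count, since siControl is at 0. Dropping the filter also changed the fit: the edgeR adjusted p of CCL5 went from 0.000119 to 5.37e-09 on the same counts. The p-values without a filter are therefore not on the scale of the main test. DESeq2 without a filter gave unadjusted p = 0.00176 for CXCL10 and 0.0487 for CXCL11 and no adjusted p. The exact permutation test over the 6 libraries, again without the pairing by Set, gave p = 0.1 (two-sided) for each, the smallest possible in that form. ART3, whose intron holds both genes on the opposite strand, was at 0 counts in every library. CXCL9, the third ligand of CXCR3, had 2, 0 and 1 counts in siNONO and 0 in each siControl library.

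**Figure D3:**
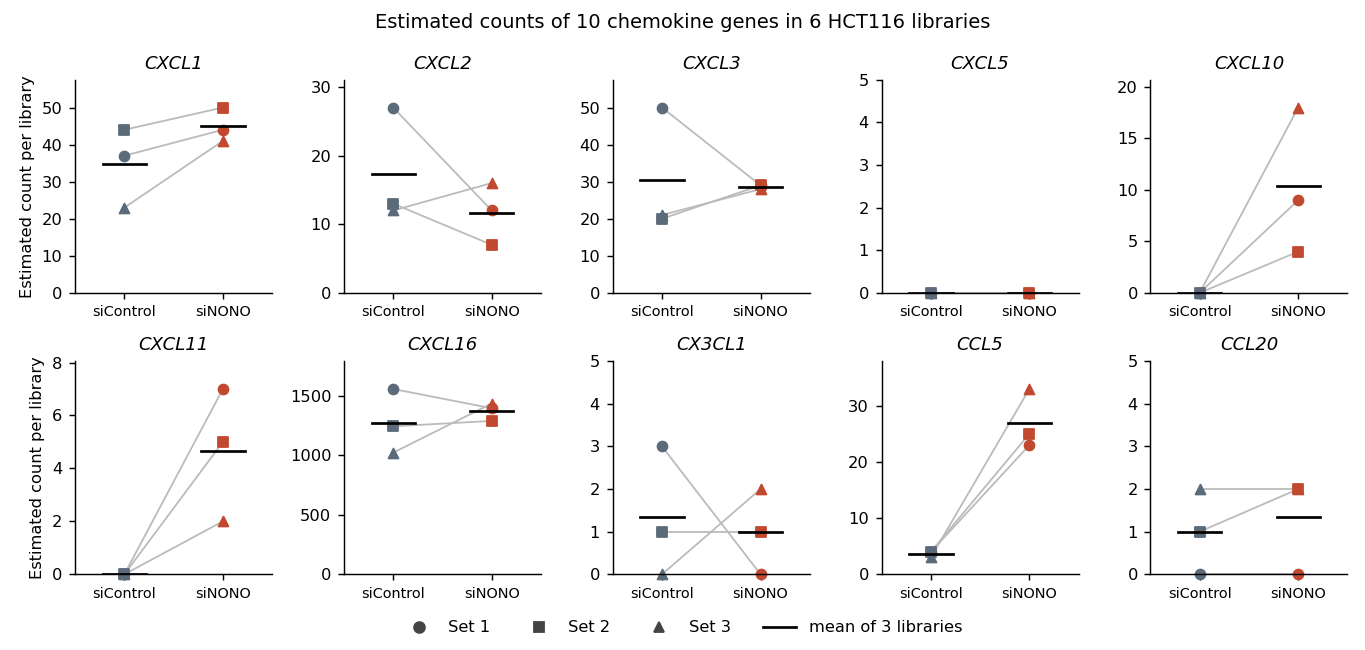
Estimated counts of each chemokine in the 6 libraries, 1 panel a gene with its own y axis from 0, with lines that join the siControl and siNONO library of the same Set and black bars at the mean of 3 libraries. CCL5, CXCL10 and CXCL11 have the higher count in siNONO in all 3 Sets, and the lines of CXCL2 and CXCL3 cross.

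CXCL16, the transmembrane chemokine and scavenger receptor, had 1557, 1243 and 1022 counts in siControl against 1395, 1289 and 1435 in siNONO. In CPM these were 47.3, 45.4 and 46.6 against 48.8, 46.3 and 51.3, with the siNONO library higher in each Set and overlap between the groups. The log2 fold change was 0.07 ± 0.0446 (SE, 95% interval -0.03 to 0.17, edgeR adjusted p = 0.221), an interval of 0.982-fold to 1.12-fold, so a change beyond 1.12-fold lies outside it. With the most counts of the group it was also the most precisely measured.

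The TPM of CXCL16 ran 41.07, 37.50 and 50.81 in siControl and 39.91, 41.61 and 41.63 in siNONO. The high value of siControl Set 3 stood beside an RSEM gene length of 1502.06 bases in that library, against 1649.80 to 1877.36 in the other 5. The SD over siControl was 6.89 on a mean of 43.1 in TPM and 0.943 on a mean of 46.4 in CPM. With TPM in place of counts the log2 fold change turned to -0.06 (limma adjusted p = 0.639 with a pseudocount of 1). Exons of MED11 and ZMYND15 overlap CXCL16 on the opposite strand. MED11 held 145 to 226 counts and ZMYND15 34 to 59, and the strand setting of the counting is not given in the sources used here.

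CX3CL1, or fractalkine, the other membrane-bound ligand, had 3, 1 and 0 counts in siControl against 0, 1 and 2 in siNONO. CCL20, the ligand of CCR6, had 0, 1 and 2 counts in siControl against 0, 2 and 2 in siNONO. The ratios of the summed levels were 0.731 (95% counting interval 0.107 to 4.32) for CX3CL1 and 1.3 (0.220 to 8.87) for CCL20, so no difference was detectable at this depth. CCL20 shares the NF-kB position of CXCL1 and CXCL3 but not their level.

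**Figure D4:**
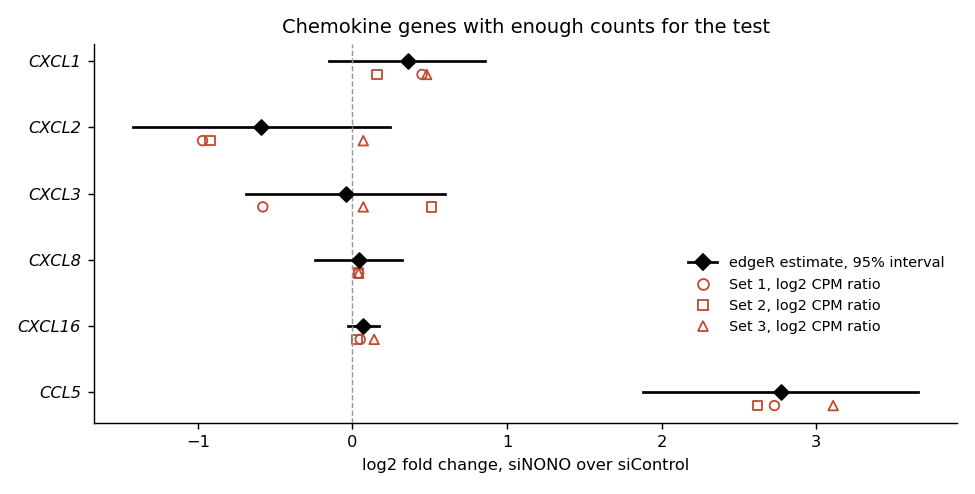
Log2 fold change of siNONO over siControl (x axis) for the 5 tested chemokines and CXCL8, with a diamond at the edgeR estimate, its 95% interval as a bar and the log2 CPM ratio of each Set as an open symbol. The interval of CCL5, from 1.88 to 3.66, is the only one that does not reach 0.

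AU-rich elements were more frequent in some of the chemokines than in others. Copies of ATTTA in the 3' untranslated region numbered 6 in CXCL1, 10 in CXCL2, 7 in CXCL3, 11 in CXCL5 and 9 in CXCL8, while CCL20 had 3, CX3CL1 had 2, CXCL10, CXCL11 and CXCL16 had 1 each and CCL5 had 0. The longer TTATTTATT occurred 3 times in CXCL1, 5 times in CXCL2 and 1 time each in CXCL3, CX3CL1 and CXCL8, and in none of the others. Of 13190 tested genes with an annotated 3' untranslated region, 32.8% had 5 or more ATTTA and 9.3% had TTATTTATT, with a median of 2 ATTTA. These counts are a description of the annotated sequence.

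Receptors of the 10 ligands were scarce in HCT116. CXCR6, which binds CXCL16, had enough counts for the test, with 19, 15 and 9 counts in siControl against 17, 16 and 25 in siNONO (log2 fold change 0.39 ± 0.360, edgeR adjusted p = 0.413). CXCR2 had 4, 4 and 2 counts against 1, 3 and 7, CX3CR1 had 5, 3 and 2 against 5, 3 and 3, and CCR1 had 7, 4 and 2 against 3, 2 and 4. CXCR1 (at most 3 counts), CCR3 (at most 3) and CCR6 (at most 2) were lower still, and none of these reached the test. CXCR3, the receptor of CXCL10 and CXCL11, had 3 counts in the siControl library of Set 2 and 0 in the other 5 libraries. Of the whole list of 23 chemokine receptors, 6 were tested and none was called in either direction by edgeR (0 of 6), beside 46.6% of all genes tested. Most of the 6 had low counts, so this count says little of receptors as a group. Their median log2 fold change was 0.23 against -0.005 over all genes tested.

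The other chemokine ligands were mostly at or near 0. Of 38 listed, 37 had a row, 22 were at 0 in every library and 2 were tested, CXCL8 and CCL26. Of these 2, 0 were called, beside 46.6% of all genes tested called in either direction. With 2 genes this count says nothing of the untested ligands. CCL26, an eosinophil attractant, had 20, 10 and 5 counts in siControl against 11, 8 and 7 in siNONO (log2 fold change -0.36, edgeR adjusted p = 0.516). The 35 untested ligands had at most 6.68 counts in any library.

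Genes of the interferon response that are known to act upstream of CXCL10, CXCL11 and CCL5 included the largest changes of the lists. Of 16 such genes, all tested, 8 were called higher and 2 lower, beside 23.2% and 23.4% of all genes tested, with a median log2 fold change of 0.17 and a range from -0.72 to 3.14. IRF7, which drives interferon genes, rose from 6.25 to 55.9 CPM (log2 fold change 3.14 ± 0.0789, edgeR adjusted p = 2.68e-11). The transcription factor genes IRF9 (from 13.9 to 57.5 CPM, 2.05) and STAT2 (from 66.8 to 127 CPM, 0.92) rose as well. IFNGR1 rose from 17.2 to 40.2 CPM (1.22) and IRF2 from 9.88 to 16.5 CPM (0.73), whereas IFNGR2, the partner chain of the interferon gamma receptor, fell from 41.1 to 25.0 CPM (-0.72). These edgeR adjusted p-values ran from 2.68e-11 to 1.35e-05. The list was chosen with earlier results of these data known, so its direction is a description. Any link between these mRNA changes and those of CXCL10, CXCL11 and CCL5 was not tested.

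The NF-kB list was split more evenly and by smaller amounts. Of 25 genes, 22 were tested, of which 11 were called higher and 5 lower, beside 23.2% and 23.4% of all genes tested, with a median log2 fold change of 0.14. With limma on TPM the counts were 3 higher and 3 lower, and with DESeq2 they were 7 and 2. The shares above are those of edgeR, and those of limma and DESeq2 over all genes were not worked out. TLR3, the sensor of double-stranded RNA, rose from 4.69 to 14.0 CPM (1.60 ± 0.121, edgeR adjusted p = 3.85e-07), the adaptor MYD88 from 31.4 to 66.1 CPM (1.07 ± 0.0440, edgeR adjusted p = 1.78e-09) and BIRC3, itself an NF-kB target, from 14.0 to 22.2 CPM (0.67 ± 0.0650, edgeR adjusted p = 3.30e-06). No other gene of this list was called with an absolute log2 fold change of 0.5 or more. NFKBIA, which encodes the inhibitor IkBa and is an NF-kB target too, had a log2 fold change of 0.01 (edgeR adjusted p = 0.890). TNF, at 0 in every siControl library, had 1, 0 and 2 counts in siNONO, and IL1B, also at 0 in siControl, had 2, 1 and 0.

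In both remaining lists the called changes were small. Over all genes tested, 46.6% were called in either direction, against 5 of 10 genes in the decay list and 5 of 8 in the shedding list. Of the 10 genes that govern the decay of chemokine mRNA, 1 was called higher, ZC3H12A (log2 fold change 0.45, edgeR adjusted p = 0.000737), which encodes the endonuclease regnase-1, and 4 were called lower, led by ZFP36L1 (-0.36) and KHSRP (-0.35). ZFP36, which encodes tristetraprolin, was at -0.09 and not called. Of 11 genes for shedding and processing, 8 were tested, 4 of them called higher and 1 lower. The sheddase gene ADAM10 was the lower (-0.21, edgeR adjusted p = 0.000142), ADAM17 was at 0.07 and not called, and RHBDF2, a partner of ADAM17, was higher by 0.42 (edgeR adjusted p = 4.72e-06). Without the Set block the count called higher in this list was 2 rather than 4, and the NF-kB genes called lower were 3 rather than 5. The share of all genes called without the block was not worked out.

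**Figure D5:**
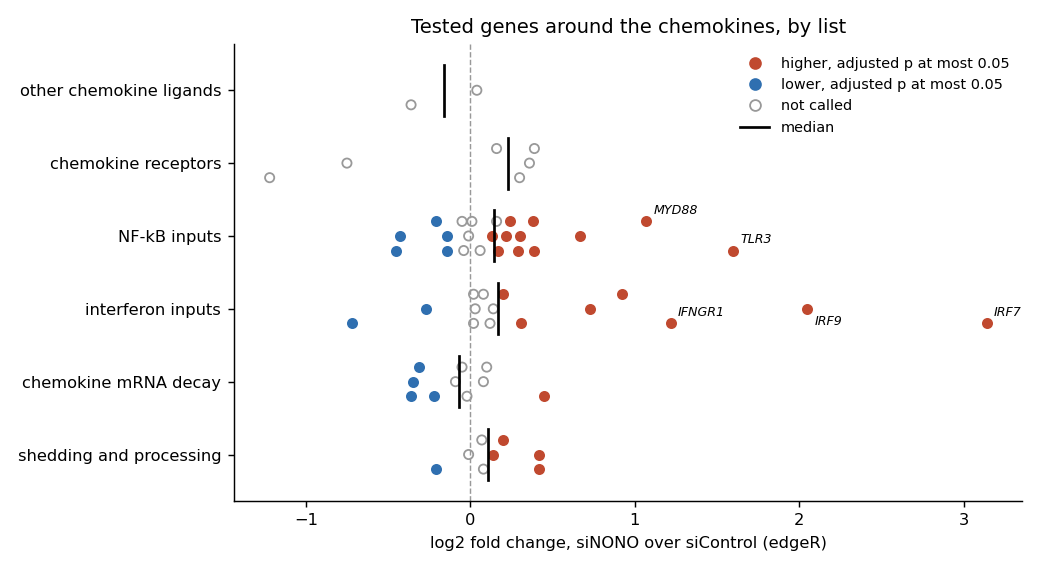
Log2 fold change of siNONO over siControl (x axis) of the tested genes in the 6 lists (1 interferon gene is not shown), 1 row a list, with called genes filled (red higher, blue lower), the others open and a black bar at the median of the whole list. The interferon row reaches from -0.72 to 3.14, and the decay and shedding rows stay between -0.36 and 0.45.

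Genes with a like pattern over the Sets were sought among 13289 genes with an average of at least 1 log2 CPM, by the distance between the 3 within-Set log2 differences. For CCL5, at 2.18, 2.15 and 2.58 after a prior count was added, the nearest were USP18 (2.17, 2.15 and 2.49, distance 0.0985), IFI35 (2.18, 2.11 and 2.47, distance 0.121) and LGALS9 (2.32, 2.19 and 2.73, distance 0.209). Without the prior count the log2 CPM ratios of CCL5 were 2.73, 2.62 and 3.11 in Sets 1 to 3. In each Set that lies above the values printed for these genes, so the small distances depend on the prior count. Nearest to CXCL16 were LRIG3, MAP7D3 and CCNB1IP1, at distances of 0.0154 to 0.0188, and to CXCL1 they included ZNF485 and C12orf76, at 0.0630 and 0.0643. CXCL2 stood nearest to C20orf204, C5orf34 and ENSG00000285053, at 0.111 to 0.150, and CXCL3 to ENSG00000234338, ODF3B and TMEM86B, at 0.157 to 0.236. These are likenesses over 3 differences a gene, which many genes can share.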

How the data were processed

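RNA-seq of HCT116 cells with siControl or siNONO was used, 3 libraries each. Per the study's methods and labels, the authors trimmed the reads, aligned them with STAR to GENCODE on GRCh37 and ran RSEM (1.3.1). The deposited estimated counts (expected counts) carry no normalization. TPM, as the authors deposited it, is RSEM's level scaled for effective length and depth.

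Counts were rounded to whole numbers and tested with edgeR (4.0.16, R 4.3.3) by the quasi-likelihood F-test in the form of edgeR 3, with TMM scaling, filterByExpr (minimum count 10) and Set as an additive term, and p-values were adjusted by Benjamini-Hochberg over 17000 genes. CPM use TMM-scaled totals. Standard errors were worked out from each fold change and F statistic. The labels give the Set numbers and no other batch, and they pair the libraries: deviations from the group means correlated at 0.428, 0.257 and 0.509 within Sets 1 to 3 over 10814 genes, and from -0.444 to 0.159 across Sets. No pair of replicates was within sampling noise of each other. Where nothing says that libraries came from separate cultures, p-values measure the spread between these libraries, which may be technical. The biological coefficient of variation was 3.51%. On simulated counts for siNONO against siControl (16752 genes), edgeR called 83.5% of genes changed by 1 on the log2 scale and 95.4% of those changed by 2, with 4 false calls. The simulation had no Set effect and 200 genes set to change, far fewer than were called in the data. Its shares are over genes of every level and do not hold for genes with counts as low as CXCL1, CXCL2 and CXCL3.

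Alternatives were DESeq2 (1.42.0), limma (3.58.1) on log2(TPM + 1) and log2(TPM + 0.1), no block, other filters and leaving out libraries. DESeq2 without independent filtering and without a filter for members below it were added after seeing the data. For a gene at 0, the limit is 3 counts (of a group unless stated), and intervals (95%, exact) and limits cover counting error only. Positions, exons and 3' untranslated regions come from GENCODE version 44 mapped to GRCh37, later than the authors' version.

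The chemokines and the lists were chosen with earlier results of these data known. Genes named are the 10 chemokines, their receptors, NONO, CXCL8, list genes called with an absolute log2 fold change of at least 0.5, and for each tested chemokine the 3 genes nearest in pattern. 1 receptor, 1 interferon gene of the lists and 1 gene near in pattern are not reported here. Other list genes and CD68 were named after their values were seen. Symbols were given for 62162 of 62492 IDs (99.5%).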

Additional observations from a re-analysis of the deposited data

How the results depend on the processing

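CCL5 was called higher under every alternative that gave it an adjusted p, with log2 fold changes from 0.92 to 2.88, from 2.63 to 2.88 with libraries left out, and adjusted p-values from 5.37e-09 to 0.00226. Except with no filter on low counts, CCL5 entered these tests only through its siNONO libraries, so the agreement adds no separate support. Through its independent filtering DESeq2 gave CCL5 no adjusted p, and with that filtering off a DESeq2 adjusted p of 0.00142. The chemokines called higher were 3 with no filter on low counts and 0 when 10 counts were required in every library, where CCL5 was not tested. None was called lower by any alternative. CXCL3 turned to 0.00 with limma on log2(TPM + 0.1) and ran from -0.29 to 0.29 with libraries left out. CXCL16 turned to -0.06 with limma on TPM under both pseudocounts, and CXCL8 to -0.02 and -0.03. Of the 64 tested genes of the 6 lists, 24 were called higher in edgeR and 12 with limma under both pseudocounts. Those called lower were 12 in edgeR and 9 to 12 over the alternatives. Over all genes tested, edgeR called 23.2% higher and 23.4% lower. The shares of all genes called by limma and DESeq2 were not worked out, so their counts have no background beside them. Without libraries of Set 2, and with no filter on low counts, 1 chemokine receptor was called lower. The pairing by Set changed no call on a chemokine: with no replicate block CCL5 was at 2.80 (edgeR adjusted p = 0.000111), CXCL1 at 0.34, CXCL2 at -0.58, CXCL3 at -0.09 and CXCL16 at 0.07. Depth limits CXCL5, CX3CL1 and CCL20, with at most 3 counts in a library, and CXCL10 and CXCL11, whose siControl level is known only as a limit.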
